A study of Zea mays with 14 samples.

Results

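Stretches of the maize genome with many separate H3K27me3 peaks in seedling shoots were examined for the spacing of those peaks, for H3K27me3 in roots, for 4 other chromatin readouts and for their gene models and mRNA. The unit was the clone, a sequenced insert of the B73 genome on which the peak lists give positions. A clone was called dense when the shoot H3K27me3 list held 6 or more peaks on it, which was the case for 263 of 15520 clones with a peak or a gene model. The members were thus chosen by shoot H3K27me3 itself, so their shoot peak numbers are a description of the choice. At least 1 shoot H3K27me3 peak was on 48.4% of all clones. The dense clones were set against the 15257 other clones, of which 7244 had 1 to 5 shoot H3K27me3 peaks and 8013 had none.

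H3K27me3 is written by the Polycomb repressive complex PRC2 and is found at genes that are kept off in a tissue but can be used in another one or at another stage. In Arabidopsis it mostly covers single genes or a few neighbours rather than long domains, and it is largely separate from transposable elements, which carry DNA methylation instead. H3K4me3 and H3K9ac are found at the start of genes that are or can be transcribed, and H3K36me3 is found along transcribed genes.

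All material came from seedlings of the inbred line B73, grown for 14 days in a growth chamber and separated into shoots and roots. Each of the 7 assays had 1 library per organ. Per the labels' protocols, tissue of 10 seedlings was pooled for the chromatin and DNA methylation libraries, and the DNA of 3 immunoprecipitations was combined for each histone library. The 10 peak lists of H3K27me3, H3K4me3, H3K9ac, H3K36me3 and McrBC-derived DNA methylation were used together with the mRNA tables, and the 2 libraries of small RNA were not used here. Whole organs mix many cell types, and the model identifiers matched no gene name, so marker genes of shoot and root tissue could not be looked up.

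Without replicates, no test between groups or organs was possible. Intervals given below are 95% intervals for counting error only, and they treat peaks and models as independent, which neighbouring peaks and overlapping models are not. The read depth of the chromatin libraries is unknown, and shoot lists were larger than root lists for H3K27me3 (14592 peaks in shoot and 6875 in root), so numbers of peaks are not compared between organs as amounts of the mark. The mRNA depths over gene models amounted to 21615685 reads for shoot and 21406798 for root. The length of a clone was taken as its extent, the largest end of any peak of the 10 lists on it.

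Most dense clones stood close to the threshold. Of the 263 clones, 91 had 6 shoot peaks, 67 had 7 and 43 had 8, and 35 had 10 or more. The clones just inside the threshold, with 6 peaks, had 3.75 peaks per 100 kb of extent, and the 173 clones just outside it, with 5 peaks, had 3.12. All dense clones together held 2008 of the 14592 shoot peaks. Their extent had a median of 163 kb, against 152.7 kb in other clones, and summed to 43.3 Mb, against 2264 Mb.

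The peaks of dense clones were not evenly spaced along the clone. Measured from the end of a peak to the start of the next, the 1745 gaps on dense clones had a median of 541 bp (401 to 791), a lower quartile of 47 bp and an upper quartile of 18322 bp. Gaps under 1 kb made up 53.5% of them (51.1 to 55.8%), and gaps of 10 kb or more made up 31.4%. In clones with 3 to 5 peaks the median gap was 19518 bp (18244 to 21000) and 21.0% of gaps were under 1 kb, and in clones with 2 peaks the median was 34780 bp. Neighbouring peaks on dense clones overlapped by up to 92 bp in 266 cases, equal to 15.2% of gaps, so a part of the entries of the list formed continuous intervals. With peaks under 1 kb apart merged, 70 clones kept 6 or more regions, and 22 dense clones were reduced to a single region.

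**Figure D1:**
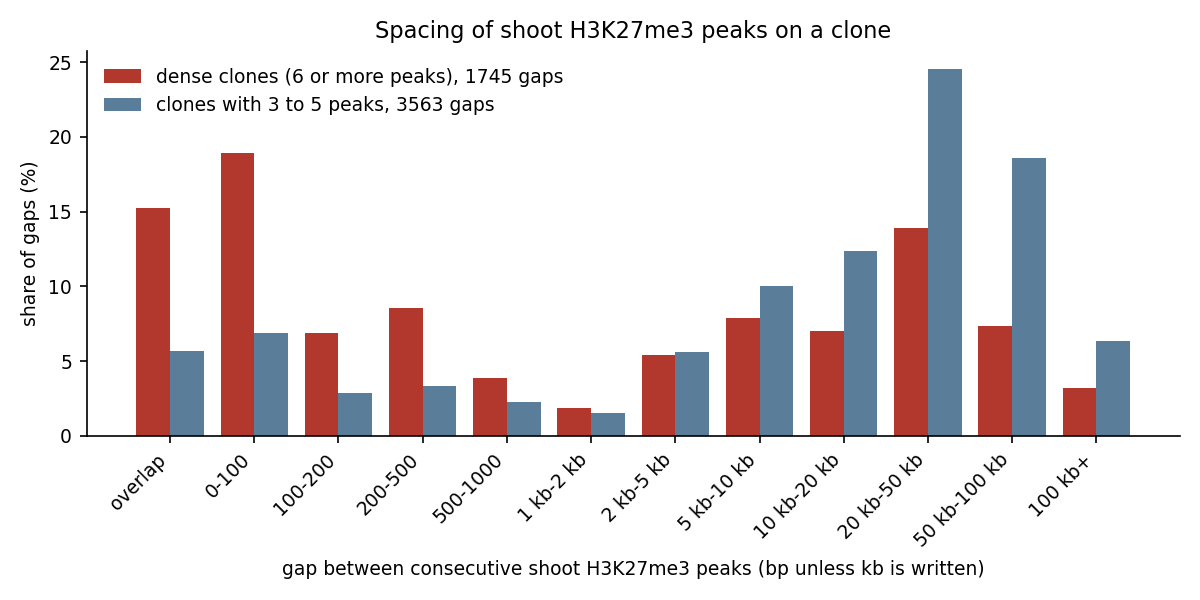
Share of gaps (percent) between consecutive shoot H3K27me3 peaks by gap length, for dense clones (red) and for clones with 3 to 5 peaks (blue). Dense clones have a group of gaps under 1 kb, 53.5% of all, beside a second group of gaps of 5 kb and more.

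The short gaps lay mostly at the end of the clone. Of the 933 gaps under 1 kb on dense clones, 812 (87.0%) were between peaks that both ended in the last 5 kb of the extent. In dense clones 1048 of the 2008 shoot peaks, or 52.2% (50.004 to 54.4%), ended within these last 5 kb, a stretch that makes up 3.04% of the extent. The share was 15.8% (15.2 to 16.4%) in other clones. The first 5 kb of the dense clones held 69 peaks, or 3.44%. Peaks in the last 5 kb of dense clones were shorter than those elsewhere on them, with medians of 307.5 and 604.5 bp, and together they covered 33.5% of that stretch, against 1.80% of the remaining extent. Because the extent ends at the last peak over all lists, that peak lies at distance 0 by definition. The extent of 124 of the 263 dense clones ended in a shoot H3K27me3 peak.

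Runs of at least 4 peaks under 1 kb apart numbered 153 on dense clones, and 150 of them touched the last 5 kb. They were found on 149 dense clones. The pattern was not limited to H3K27me3 or to dense clones: over all clones, runs touched the last 5 kb in 204 of 208 cases for H3K27me3 in shoot, in 120 of 120 for H3K36me3 in shoot and in 79 of 79 for H3K4me3 in root. No source used here states how mapping and peak calling treated the ends of clones, and the part this played in the runs was not tested. The results below are therefore also given without the last 5 kb, a split made after the data were seen. By that split, 80 dense clones had 6 or more shoot peaks outside the last 5 kb and are called spread clones, and the other 183 had fewer. The name refers to this number of peaks and not to even spacing. On the spread clones AC183589.3 and AC212835.2, named after their values were seen, the longest gaps between the 6 shoot peaks were 0.464 and 0.192 kb. A shoot run at the end was present on 12 of the 80 spread clones. The median gap was 8978 bp in spread clones and 175 bp in the other 183, a contrast that follows from the split.

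**Figure D2:**
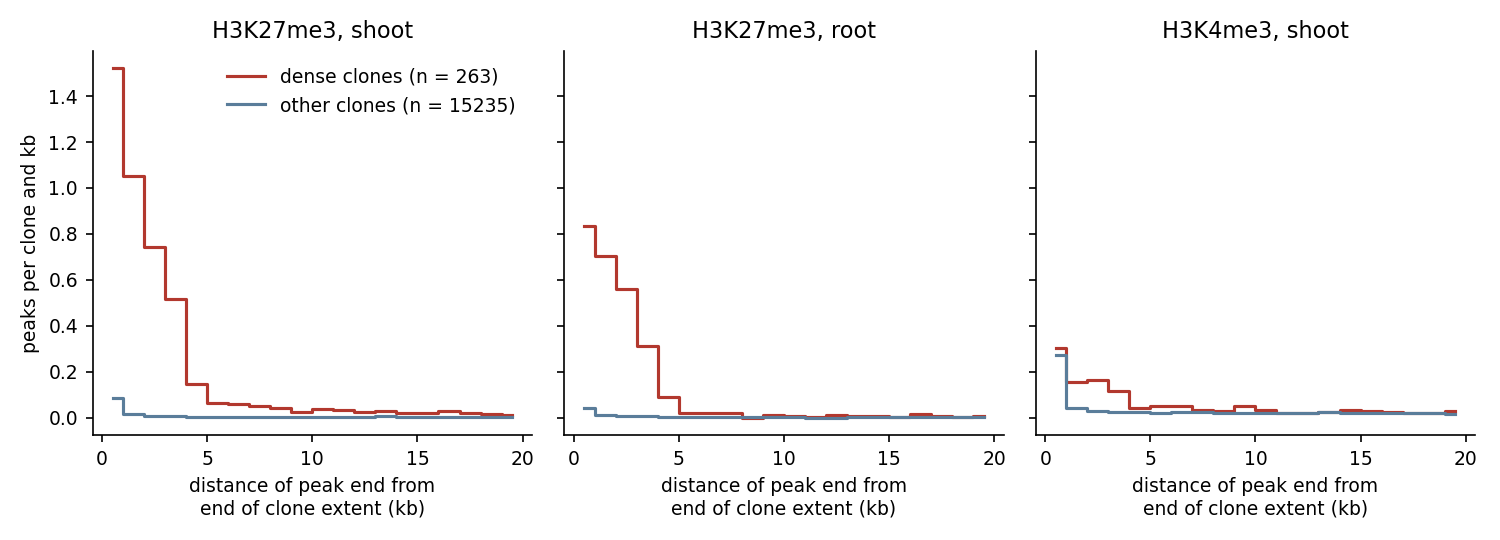
Peaks per clone and kb against the distance of the peak end from the end of the clone extent (kb), for dense clones (red) and other clones (blue), in 3 lists. In both H3K27me3 lists the dense clones rise within about the last 5 kb, and H3K4me3 in shoot has a much lower step there.

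The clones with the most peaks had a run at the end, in some cases beside peaks spread over the rest of the extent. AC211681.2 had 18 shoot peaks, the highest number, and 12 root peaks over 147.1 kb. Of its shoot peaks, 10 lay outside the last 5 kb at gaps of 90 to 23292 bp. After a further gap of 40.8 kb, the other 8 formed a run between positions 142963 and 147131, where 7 of the root peaks also lay. AC184048.4 had 16 shoot and 8 root peaks, and 11 of the shoot peaks lay in a run of 4.53 kb that ended at the last position of the extent. AC210731.2 likewise had 16 shoot and 14 root peaks, of which 11 and 13 were in the last 5 kb. AC206295.1 had 15 shoot and 5 root peaks at a median gap of 6681.5 bp. As on AC211681.2, some of its shoot peaks formed a run at the end, 6 over 4.59 kb, and the other 9 lay outside the last 5 kb. AC213457.1 had 13 shoot peaks, 10 of them in the last 5 kb, and no root peak.

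At the extremes of spacing, AC187250.4 had the shortest median gap, -41 bp, which means that its neighbouring peaks mostly overlapped. It had 6 shoot and 9 root peaks, 5 and 7 of them in the last 5 kb. AC204951.2 had the longest median gap, 53605 bp, with 6 shoot peaks over 215.3 kb and 1 root peak. AC198290.2 followed with a median gap of 51052 bp and 6 shoot and 4 root peaks, and AC201745.2 with 36175 bp and 6 peaks in each organ.

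Root H3K27me3, which the choice of members did not use, was denser on the dense clones. They held 1041 root peaks, 2.41 per 100 kb, against 0.258 per 100 kb in other clones, a ratio of 9.34 (8.74 to 9.98). At least 1 root peak was present on 222 dense clones, or 84.4% (79.5 to 88.3%), where 27.6% of all clones had one. This was not particular to dense clones. On the 173 clones with 5 shoot peaks, just outside the threshold, the share was 85.0% (78.9 to 89.5%). Their root density was 1.37 per 100 kb, 5.30 times that of all other clones. At least 6 root peaks were present on 79 dense clones, or 30.04%, where 0.696% of all clones had as many. Against clones with 1 to 5 shoot peaks the ratio of root density was 5.15.

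The ratio and the numbers of clones with root peaks depended on the clone ends. In dense clones 63.2% of root peaks (60.2 to 66.1%) lay in the last 5 kb, against 18.5% in other clones. Without the last 5 kb, dense clones had 0.913 root peaks per 100 kb, against 0.217 in other clones, and the ratio was 4.20 (3.78 to 4.66). At least 1 root peak lay outside the last 5 kb on 163 dense clones, or 62.0%, against 23.8% of other clones. Clones with 5 shoot peaks had one there in 68.2% of cases (60.9 to 74.7%). Their root density outside the last 5 kb was 0.811 per 100 kb, a ratio of 3.73 (3.25 to 4.28). At least 6 lay there on only 9 dense clones, or 3.42%, and on 1 of the 7244 clones with 1 to 5 shoot peaks. The 80 spread clones had 1.56 root peaks per 100 kb outside the last 5 kb, 7.16 times (6.19 to 8.25) the density of other clones, and 68 of the 80 had at least 1 root peak there.

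The members were chosen for many shoot peaks and the shoot list is the longer one, so the numbers of both organs on a clone are given as a description. Shoot peaks outnumbered root peaks on 220 of the 263 dense clones, the numbers were equal on 13 and root peaks outnumbered shoot peaks on 30. No root peak was listed on 41. Shoot had 1.93 times as many peaks as root on dense clones and 2.43 times as many on clones with 1 to 5 shoot peaks. AC196646.3 had the most root peaks, 15, against 7 in shoot, and 14 of the root peaks were in the last 5 kb. AC185461.3 had 10 shoot and 13 root peaks, of which only 3 root peaks were in the last 5 kb, so that it held 10 root peaks in the rest of its extent. AC208670.2 had 10 shoot and 12 root peaks, and AC210976.2 had 12 in each organ.

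**Figure D3:**
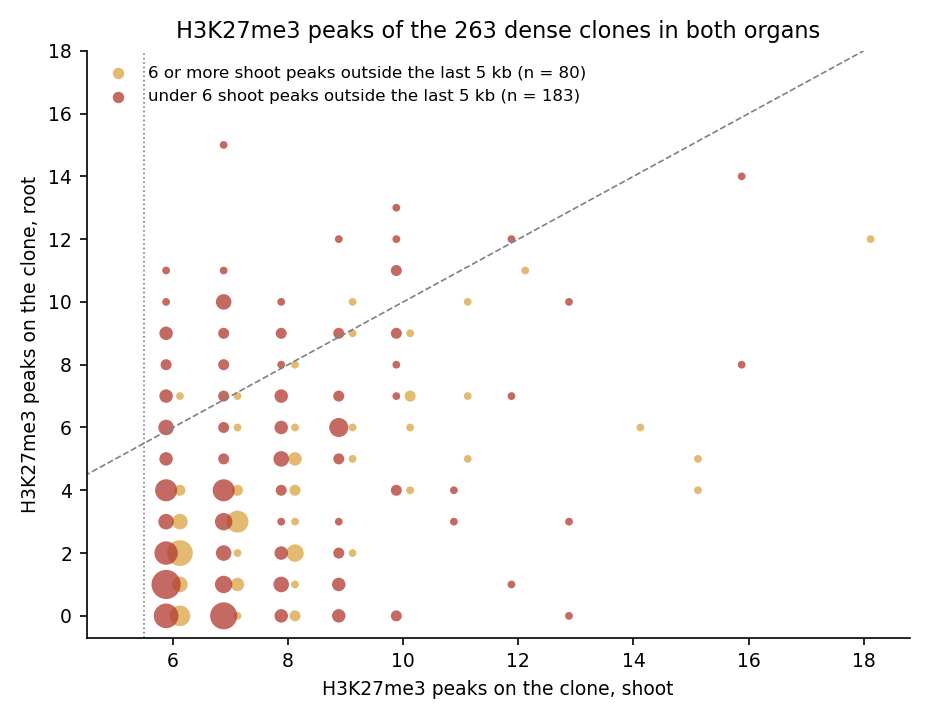
Number of H3K27me3 peaks in root against shoot for each dense clone, with the area of a point proportional to the number of clones, shifted sideways by group; the dashed line marks equal numbers and the dotted line the threshold. Clones with 6 or more shoot peaks outside the last 5 kb (yellow, n = 80) and the remaining 183 (red) both lie mostly below the line of equal numbers, a position that the choice of clones by shoot peaks favours.

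Most root peaks lay on a shoot peak, while most shoot peaks had no root peak on them. Of the root peaks on dense clones, 81.7% (79.2 to 83.9%) overlapped a shoot peak by at least 1 bp, against 70.0% (68.7 to 71.2%) on clones with 1 to 5 shoot peaks. Outside the last 5 kb these shares were 75.2% (70.6 to 79.3%) and 71.0% (69.6 to 72.3%), with overlapping intervals. In the other direction, 37.6% of shoot peaks on dense clones overlapped a root peak, against 28.0% on clones with 1 to 5 peaks. Outside the last 5 kb the shares were 30.4% and 27.8%. Of the 150 shoot runs at the ends of dense clones, 110 touched a root H3K27me3 peak.

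The marks of active genes were moderately denser on dense clones. H3K4me3 had 1298 shoot peaks on dense clones, 3.0004 per 100 kb, against 2.10 on other clones, a ratio of 1.43 (1.35 to 1.51), and the ratio in root was 1.41 (1.32 to 1.497). H3K9ac, an acetylation that accompanies H3K4me3 at gene starts, had 2.63 shoot peaks per 100 kb, against 2.05, and ratios of 1.28 (1.21 to 1.36) in shoot and 1.28 (1.18 to 1.38) in root. Without the last 5 kb the shoot ratios were 1.37 for H3K4me3 and 1.26 for H3K9ac. In spread clones they were 1.71 (1.56 to 1.87) and 1.49 (1.34 to 1.64) over the whole extent. Clones with 1 to 5 shoot H3K27me3 peaks also stood above the 15257 clones that are not dense, at 1.18 for H3K4me3 and 1.15 for H3K9ac in shoot.

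H3K36me3, the mark of transcribed gene bodies, and DNA methylation had nearly the same density on dense clones as elsewhere. H3K36me3 had 0.883 shoot peaks per 100 kb on dense clones and 0.908 on other clones, a ratio of 0.973 (0.877 to 1.08), and the ratio in root was 1.02 (0.934 to 1.11). DNA methylation had 2.46 shoot peaks per 100 kb on dense clones and 2.49 on other clones, a ratio of 0.986 (0.927 to 1.05), and 1.03 (0.954 to 1.11) in root. All 4 intervals included 1, also without the last 5 kb. Other sets of clones gave some intervals that excluded 1. In spread clones without the last 5 kb, the ratio of DNA methylation in shoot was 1.13 (1.01 to 1.26). Against clones with 1 to 5 peaks, the ratio of H3K36me3 in shoot was 0.901 (0.811 to 0.998). Among clones with 8 or more shoot H3K27me3 peaks, the H3K36me3 ratio in shoot was 0.809 (0.674 to 0.963).

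**Figure D4:**
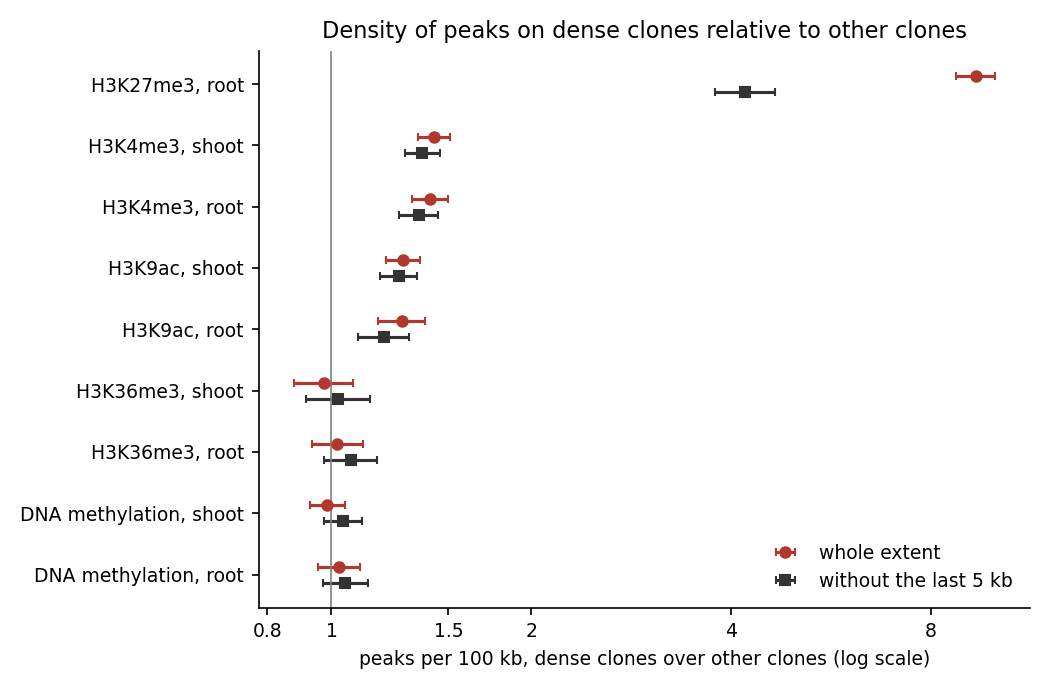
Peaks per 100 kb on dense clones over other clones (log scale) for 9 peak lists, over the whole extent (red) and without the last 5 kb (black); bars are 95% intervals for counting error. Root H3K27me3 lies at 9.34 and 4.20, H3K4me3 and H3K9ac above 1, and H3K36me3 and DNA methylation near 1.

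Counted by clone, H3K4me3 and, in shoot, H3K9ac were on nearly all dense clones, as they were on most clones of the genome, and H3K36me3 was on fewer. An H3K4me3 peak in shoot was on 255 of 263 dense clones, or 97.0%, where 90.4% of all clones had one. H3K9ac in shoot was on 251, or 95.4%, where 90.7% of all clones had it. H3K36me3 in shoot was on 160, or 60.8% (54.8 to 66.5%), where 65% of all clones had it, and DNA methylation in shoot was on 252, or 95.8%, where 95.5% of all clones had it. In root, H3K4me3 was on 251 dense clones, or 95.4%, where 84.7% of all clones had it, and H3K9ac was on 210, or 79.8%, where 73% had it. H3K36me3 in root was on 186, or 70.7%, where 69.6% had it, and DNA methylation in root was on 199, or 75.7%, where 70.5% had it.

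A few dense clones lacked the active marks altogether. Clones lacking all of these marks were counted only among the dense clones, so the numbers cannot be judged against all clones. There were 7 dense clones with no H3K4me3, H3K9ac or H3K36me3 peak in shoot, and 6 of these had none in root either. AC203013.2 was the most marked of these, with 12 shoot and 11 root H3K27me3 peaks, 8 and 3 DNA methylation peaks, 22 models and 1935 mRNA reads. AC194643.3 and AC187239.3 had 7 and 8 shoot H3K27me3 peaks, of which 6 and 7 lay outside the last 5 kb, with 877 and 38 reads on 23 and 4 models. AC207237.2 had 7 shoot and 11 root peaks but only 2 models with 4 reads. In AC206844.2 and AC211976.2 all of the 9 and 8 shoot peaks lay in the last 5 kb. These clones were chosen for their values, apart from AC203013.2, which is among the 10 with the most shoot peaks.

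At single peaks, H3K27me3 and H3K4me3 coincided less often on dense clones. In shoot, 22.5% of H3K27me3 peaks on dense clones (20.7 to 24.4%) overlapped an H3K4me3 peak, against 35.6% (34.8 to 36.5%) on clones with 1 to 5 peaks. The shares were 28.0% (25.3 to 30.9%) and 36.2% (35.3 to 37.2%) outside the last 5 kb, and 17.5% and 32.4% within it. For H3K9ac in shoot, the shares outside the last 5 kb were 22.2% (19.7 to 24.9%) on dense clones and 28.6% (27.7 to 29.4%) on clones with 1 to 5 peaks. For H3K36me3 in shoot they were 3.44% (2.46 to 4.79%) and 5.00%, with overlapping intervals. For H3K9ac in root the shares were 7.92% and 8.23%, and for DNA methylation in shoot 5% and 4.58%, also with overlapping intervals. For DNA methylation in root the share was higher on dense clones, at 4.58% (3.43 to 6.10%), against 2.60% (2.32 to 2.93%). Outside the last 5 kb the peaks were longer on dense clones, with a median of 604.5 bp, against 463 bp on clones with 1 to 5 peaks.

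Dense clones carried more gene models, and the surplus was in models that are not transposable elements (TE). The table of typed models lists only models with at least 1 mRNA read, and no source used here explains its types EVI, PRO and UPRO. Dense clones had 3366 models, 12.8 per clone (median 11), against 10.4 per clone (median 9) in other clones, a ratio of 1.24 (1.19 to 1.28). Per 100 kb of extent the values were 7.78 and 6.98, and among clones of 145 to 183 kb, the middle 50% of dense extents, the ratio per clone was 1.07 (1.02 to 1.13). Models that are not TE numbered 9.29 per clone in dense clones, against 6.64 in other clones, a ratio of 1.40 (1.34 to 1.46). TE models numbered 3.51 per clone in dense clones and 3.72 in other clones. Clones with 5 shoot peaks, just outside the threshold, were close to dense clones, with 12.3 models per clone, 8.69 of them not TE.

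By share, TE models were 27.5% of models on dense clones (26.0 to 29.0%), against 35.9% (35.6 to 36.1%) on other clones, a difference of -8.43 percentage points (-9.93 to -6.88). PRO models were 39.0% on dense clones and 33.1% on other clones, EVI models 21.3% and 15.6%, and UPRO models 12.2% and 15.4%. EVI models were on 107 dense clones, or 40.7% (34.9 to 46.7%), against 34.1% of other clones. In spread clones there were 14.4 models per clone, and 24.7% of them were TE. On clones with 5 shoot peaks, 29.4% of models (27.5 to 31.4%) were TE.

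The 3 dense clones with the most models were long: AC210108.1 with 100 models over 322.0 kb, AC177897.2 with 78 over 308.8 kb and AC177915.2 with 55 over 362.4 kb. They were also rich in H3K4me3, with 22, 15 and 31 shoot peaks, beside 8, 7 and 7 H3K27me3 shoot peaks. AC210108.1 and AC177915.2 were named after their values were seen. With clones of over 50 models left out of both groups, the ratio of models per clone was 1.16 (1.12 to 1.21). At the other end, AC187064.2 had 15 shoot H3K27me3 peaks but a single listed model, with 6 reads.

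**Figure D5:**
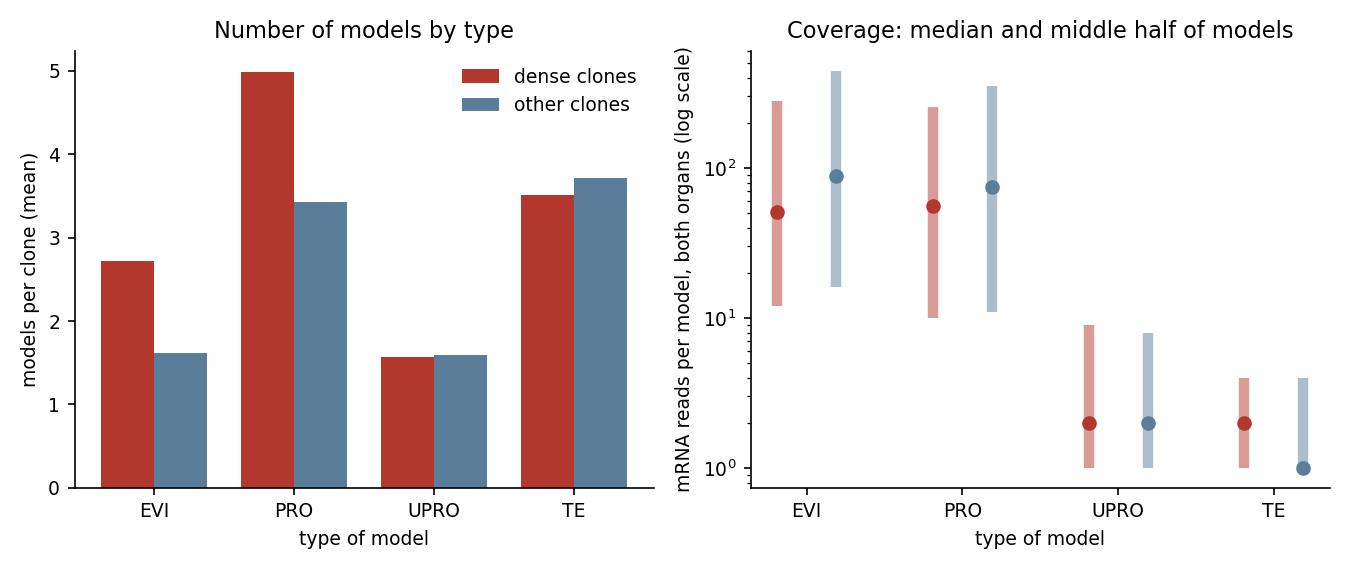
Mean number of models per clone by type (left) and mRNA reads per model in both organs together on a log scale (right; points are medians, bars the middle 50% of models), for dense clones (red) and other clones (blue). Dense clones have more EVI and PRO models per clone, with lower median reads in these types (51 and 56, against 89 and 75).

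The median mRNA coverage of the models was lower on dense clones in the EVI and PRO types, and the direction over all models depended on which were counted. The coverage column sums both organs, and in whole organs fewer cells of a type and less RNA per cell cannot be told apart. EVI models had a median of 51 reads on dense clones (40 to 66), against 89 (86 to 92) on other clones. PRO models had a median of 56 (48 to 64), against 75 (73 to 77). The lower medians were not particular to dense clones. On clones with 5 shoot peaks, just outside the threshold, they were 54.5 (38 to 75) for EVI and 49 (40 to 61) for PRO models. Over all clones with 1 to 5 shoot peaks they were 85 and 74. Per covered base, the median depth of EVI models was 4.01 on dense clones and 5.13 on other clones, and that of PRO models was 3.54 and 4.2. UPRO models had a median of 2 in both groups. Over all models that are not TE the medians were 33 (28 to 38) on dense clones and 34 (33 to 35) on other clones, with UPRO models a smaller share of them on dense clones. The ratio of these medians, dense over other clones, was 0.971 (0.824 to 1.12). It was 0.814 (0.712 to 0.949) for such models with more than 1 read, and 1.71 (1.57 to 2) with TE models included, which have low coverage and are a smaller share on dense clones.

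High coverage was about as frequent on dense clones over all models that are not TE, but less frequent among PRO models. Of the models that are not TE, 191, or 7.82% (6.82 to 8.95%), had 1000 reads or more, where 8.83% of all such models did. For PRO models the share was 8.23% (6.86 to 9.84%), against 10.4% (10.2 to 10.7%) on other clones. For EVI models it was 10.7% (8.68 to 13.2%), against 13.5% (13.1 to 14.0%), with overlapping intervals. For UPRO models it was 1.46% (0.669 to 3.14%), against 0.751%. The lower share of PRO models was not particular to dense clones. On clones with 5 shoot peaks the shares were 5.32% of models that are not TE, 6.46% of PRO and 6.35% of EVI models. Over all clones with 1 to 5 shoot peaks they were 8.97%, 10.2% and 13.4%. Of all typed models on dense clones, 21.2% rested on a single read, where 26.9% of all typed models did. Summed over a clone, the median was 1190 reads on dense clones and 899 on other clones. Among the other clones it was 1230 on those with 1 to 5 shoot peaks and 637 on those with none.

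The 5 models of highest coverage on dense clones that are not TE lay on clones with 6 shoot H3K27me3 peaks. Such clones are 91 of the 263 dense clones and hold 843 of their 2442 models that are not TE. ZmEvi056667 on AC197476.2 had 25426 reads over 944 covered bases. ZmEvi059973 on AC198290.2, a clone whose 6 shoot peaks stand at a median gap of 51052 bp, had 20657 reads. ZmEvi048357 and AC195910.2_FG008 had 18895 and 13963 reads and overlap on the same contig and strand of AC195910.2, so they are not independent. ZmEvi045685 on AC195335.2, a spread clone, had 17409 reads. Among TE models the highest were AC216802.1_FG017 with 2575 reads, AC209940.2_FG021 with 1836 and AC194898.2_FG022 with 1033. No functional name is attached to these models, since none of the typed model identifiers matched the gene table.

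Shoot and root mRNA could be separated for 79 models on 58 dense clones, those whose summed coverage and covered length matched a single gene of the organ tables. These are highly covered models, with 579 to 25426 reads, and they do not stand for all models of the clones. All 79 had mRNA reads in both organs, at least 34 in shoot and 20 in root. Models with mRNA listed in shoot or root alone are thus not represented. The pairing was checked against the peak lists: of 177 paired models listed with H3K27me3 in shoot, 0 lay on a clone without a shoot H3K27me3 peak, although 43.1% of all paired models lie on such clones. Most other lists had exceptions. For H3K27me3 in root, 4 of 75 paired models with the mark lay on a clone without a peak of that list, where 66.5% of all pairs lie on such clones. For H3K36me3 this was so for 61 of 1822 in shoot and 22 of 1908 in root, where 13.9% and 8.40% of all pairs lie on such clones. For DNA methylation in root it was so for 20 of 114, where 25.8% of all pairs lie on such clones, so the check bore out little for that list. The remaining 5 lists had 0 to 11 such models.

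A 4-fold or larger difference between organs was found in 22 of the 79 paired models on dense clones, or 27.8% (19.2 to 38.6%), against 19.0% (17.7 to 20.3%) of 3493 on other clones, where 19.1% of all pairs passed this limit. The lower bound for dense clones lies just above that share, and some of the pairs overlap, so the true uncertainty may be wider than counting error. On clones with 1 to 5 shoot peaks the share was 21.1% (19.3 to 22.9%), inside the interval of dense clones. It was 16.2% (14.5 to 18.2%) on clones with none, and 23.1% (11.0 to 42.1%) on spread clones. Of the 22, 13 were higher in shoot and 9 in root. On the log2 scale, the median of shoot over root was -0.09 (-0.39 to 0.07) on dense clones and -0.26 (-0.28 to -0.23) on other clones. Models with mRNA listed in shoot or root alone are not among the pairs, so these shares and medians leave them out.

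The largest differences ran in both directions. AC190818.2_FG042 had 5722 reads in shoot and 20 in root, a log2 ratio of 8.16, with no H3K27me3 listed in either organ. AC213791.2_FG008 had 6083 reads in shoot and 57 in root and no histone mark listed. AC197350.3_FG004 had 4278 reads in shoot and 45 in root, although it carried 728 bp of H3K27me3 in shoot and 606 bp in root, beside 1068 and 752 bp of H3K4me3. ZmEvi059973, with 20433 reads in shoot and 224 in root, likewise carried 1195 bp of H3K27me3 in shoot and 322 bp in root. In the other direction, AC195478.3_FG025 had 34 reads in shoot and 1520 in root, a log2 ratio of -5.48, with 1651 bp of H3K27me3 in shoot and none listed in root. AC194291.3_FG024 and ZmEvi039943, which have equal mark values and are not independent, had 112 and 388 reads in shoot against 4052 and 10598 in root, with 304 bp of H3K27me3 in shoot and none listed in root. Apart from ZmEvi059973, these models were chosen for their values.

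Being on a dense clone did not mean that a model itself carried the mark. H3K27me3 in shoot was listed on 19 of the 79 paired models, or 24.1%, where 4.96% of all pairs had it, and this share reflects the choice of the clones. On spread clones it was listed on 2 of 26, or 7.69% (2.14 to 24.1%). On the other 183 dense clones it was listed on 17 of 53, or 32.1% (21.1 to 45.5%). The share was 8.09% on clones with 1 to 5 shoot peaks. H3K27me3 in root was listed on 4 of the 79, or 5.06% (1.99 to 12.3%), where 2.1% of all pairs had it. All 19 models with H3K27me3 in shoot also carried H3K4me3 in shoot, and 2 of them carried H3K36me3 in shoot. The 19 models lie on 15 clones, and some have equal mark values, so they are not independent. The same shares were not counted among the 177 paired models with H3K27me3 in shoot on all clones. Only highly covered models could be paired, and all 79 had reads in both organs. The shares thus do not stand for all models with H3K27me3. Over all 79, H3K36me3 in shoot was on 26, or 32.9% (23.6 to 43.9%), where 51% of all pairs had it. In root H3K36me3 was on 40, or 50.6% (39.8 to 61.4%), where 53.4% had it. H3K4me3 in shoot was on 64, or 81.0% (71.0 to 88.1%), where 76.9% had it, and in root on 59, or 74.7%, where 67.7% had it. H3K9ac was on 60 in shoot, or 75.9%, where 74.1% had it, and on 45 in root, or 57.0%, where 51.8% had it. DNA methylation in shoot was on 4, or 5.06%, where 3.56% had it, and in root, the list with the weak check, on 5, or 6.33%, where 3.19% had it.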

How the data were processed

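The members, the lists compared and the split at the clone ends were chosen with earlier results of these data known. The authors deposited 3 kinds of file. Peak lists hold clone positions alone, coded as other values here, with no height deposited. Gene tables per organ hold depths, which are the authors' signal, that is summed base coverage, together with the marked length. A table of 161415 typed models holds the authors' coverage signal of both organs summed, equal to whole reads of 35 bases. The authors' ratio of coverage to covered length in that table served as an alternative. No source used here names the aligner, peak caller or genome build. Genes below a mean depth of about 2.55 in shoot and 2.53 in root are listed at 0. Some peaks start below position 0 of their clone and were kept as listed.

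Peaks were counted per clone and divided by the extent, the largest peak end on the clone. The 22 other clones without any peak have no extent and enter only counts of models. Models were assigned by the clone in their identifier. Their positions are on contigs and were not intersected with peaks, so annotations of single peaks and their sequences are not given. Shares have Wilson intervals, densities exact Poisson intervals, ratios exact conditional binomial intervals and medians order-statistic intervals. Overlap was counted from 1 bp. The calculations of density ratios, merging of peaks, overlap and pairs were tested on simulated or constructed data, and that of gaps was not. Python 3.11.15, numpy 2.4.6, pandas 2.3.3, scipy 1.17.1 and matplotlib 3.10.9 were used.

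Clones were named by rule: the 10 with the most shoot peaks, the 5 with the most root peaks, and the 5 with the shortest and 5 with the longest median gap. Models were named if among the 5 of highest coverage that are not TE or the 3 TE models of highest coverage. Further names are marked as chosen for their values. Alternatives changed the threshold, the comparison clones, the extent, the length and merging of peaks, the clone ends and the set of models.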

Additional observations from a re-analysis of the deposited data

Results flagged for a closer look

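The organs lay on opposite sides of 1 in 2 readouts. The density ratio of H3K36me3, dense over other clones, was 0.973 for shoot and 1.02 for root. That of DNA methylation was 0.986 for shoot and 1.03 for root. The interval of each ratio included 1, and the difference between the organs was not tested, since each value rests on 1 library.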

How the results depend on the processing

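No paired analysis was possible because each assay and organ has 1 library, so the replicate number pairs nothing. The settings for the clone ends and for clones with over 50 models were chosen after the data were seen, as were all those for the number of dense clones. Of 83 values under alternatives, 36 lay inside the interval of the value above (for counts, under a 1.5-fold change), 47 lay outside, and 0 of the ratios and differences whose interval excluded no difference changed direction. The number of dense clones, 263, became 436 with 5 or more peaks, 105 with 8 or more, 70 with peaks under 1 kb apart merged, 48 with peaks of at least the median length, and 80 or 64 without the last 5 or 10 kb. The median gap of 541 bp became 260.5 bp with 8 or more peaks, 9578 bp with long peaks, 10630 bp without the last 5 kb and 15353 bp after merging. With 5 or more peaks the root H3K27me3 ratio was 8.20. With 8 or more peaks the ratio was 11.3 for root H3K27me3, 0.809 for shoot H3K36me3 and 1.29 for models per clone. Against clones with 1 to 5 peaks the ratios were 5.15 for root H3K27me3, 1.21 for H3K4me3, 1.11 for H3K9ac and 1.12 for models, and the TE difference was -5.01 points. Among clones within the middle 50% of dense extents, the H3K4me3 ratio was 1.32, the model ratio 1.07 and the TE difference -5.40 points. With the rule applied without the last 5 kb, the ratios were 6.99 for root H3K27me3, 1.73 for H3K4me3, 1.51 for H3K9ac, 1.13 for DNA methylation, 1.39 for models and 1.16 for median mRNA coverage, and the TE difference was -11.1 points. With the members kept and the last 5 kb left out, root H3K27me3 was at 4.20. Long peaks gave 8.39 for root H3K27me3, 1.29 for H3K4me3 and 1.09 for DNA methylation, and merged peaks gave 7.55, 1.75, 1.54 and 1.06 for root H3K27me3, H3K4me3, H3K9ac and DNA methylation. By covered share, DNA methylation was at 1.07. The model ratio was 1.18 with 1 model per overlapping set, 1.33 for models of more than 1 read, 1.12 per 100 kb and 1.16 without clones of over 50 models. The TE difference was -6.39 points for models of more than 1 read and -6.86 without clones of over 50 models. The coverage ratio was 1.12 with 1 model per set, 0.814 for models of more than 1 read and 1.71 with TE models included. Peaks carry no score and clone lengths are not in the lists, so strength and true clone ends were not examined. The causes of these shifts were not tested.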

Other observations

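Runs of at least 4 peaks under 1 kb apart lay mostly at clone ends in all 10 lists. They touched the last 5 kb in 132 of 133 cases for H3K27me3 in root, in 40 of 40 for H3K4me3 in shoot, in 12 of 12 and 93 of 93 for H3K9ac in shoot and root, and in 108 of 108 for H3K36me3 in root. For DNA methylation they did so in 83 of 84 cases in shoot and 129 of 199 in root. Of the 120 H3K36me3 runs in shoot, 2 were on dense clones. Of the 150 end runs of H3K27me3 on dense clones, 65 touched an H3K4me3 peak and 6 an H3K36me3 peak in shoot. In 49 of the 150 the run started beyond the last peak of the 8 lists of other marks, by a median of 6.63 kb. The cause of the runs was not tested.

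AC189070.2, named after its values were seen, combined 1 listed model with 9 H3K36me3 peaks in shoot, the most among dense clones, and 10 root H3K27me3 peaks.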
